A study of Homo sapiens with 6 samples.

Results

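The BCL2 family decides whether a cell opens the outer membrane of its mitochondria, the step that releases cytochrome c and commits the cell to apoptosis. Pro-survival members (BCL2, BCL2L1, MCL1) hold effector members such as BAK1 and BAX in check. BH3-only members (BCL2L11, PMAIP1, BID, BAD, BMF, HRK) carry a short helix that occupies the groove of the pro-survival proteins or acts on the effectors. Several BH3-only genes are known to be switched on at the RNA level by cell stress, whereas MCL1 is known for a short-lived transcript and protein.

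The 10 members described here are BCL2, BCL2L1, MCL1, BCL2L11, PMAIP1, BID, BAD, BAK1, BMF and HRK, taken by Ensembl identifier from the 40295 rows of the gene table. All 10 had a row and all 10 passed the filter on low counts. The cells were HDQ-P1, an established human cancer cell line, in both groups. They were grown in high-glucose DMEM with serum, and 3 libraries came from cells given Y-320 at 1 μM for 48 h while 3 came from untreated cells, for which no solvent is described. Y-320 is a small molecule that was studied as an enhancer of readthrough at premature stop codons, and RNA-seq was used to ask how it changes the transcriptome when given alone. The labels do not say whether replicates were separate cultures, so p-values measure the spread between these libraries, which may be technical.

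Depth was 21045401 to 22740535 estimated counts per library, and a count of 0 allows a true level of up to 3 counts, or 0.132 to 0.143 CPM (counts divided by the TMM-scaled size of each library), for counting error only. Markers of epithelial cells were all at or above 1 CPM (8 of 8) and summed to 11400 to 11900 CPM in untreated libraries and 7390 to 7470 CPM with Y-320. Of the leukocyte markers, 0 of 5 reached 1 CPM, and their sums were 1.31 to 1.95 CPM untreated and 2.17 to 2.52 CPM with Y-320. Of the endothelial markers 2 of 4 reached 1 CPM (17.8 to 19.3 against 14.3 to 18.3 CPM, none at 0), and of the fibroblast markers 4 of 5 (201 to 240 against 112 to 131 CPM, none at 0). The part of these marker differences in the results was not tested. In bulk RNA, fewer cells of a kind and less RNA per cell cannot be told apart.

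In cells treated with Y-320, transcripts of the BH3-only genes BMF and PMAIP1 rose and the transcript of the pro-survival gene MCL1 fell. BMF reached 1.79 times and PMAIP1 1.63 times the untreated level, while MCL1 dropped to 0.792 of it. BID was also lower, BAD and BAK1 were slightly higher, and BCL2L1, BCL2, BCL2L11 and HRK did not pass the test. Outside the 10 members, the pro-survival gene BCL2L2 rose to 1.63 times the untreated level. The genes were compared by edgeR's quasi-likelihood test over all 16580 genes tested, with p-values adjusted by the Benjamini-Hochberg method and called at 0.05. Of the 10 members, 4 were higher, against 26.2% of all genes tested, and 2 were lower, against 25.4%. Without untreated replicate 1 or without Y-320 replicate 2, 2 members were higher, BMF and PMAIP1, since BAD and BAK1 lost the call. Together 6 of 10 passed the threshold, against 51.5% of all genes, a share close to that background. A change of at least 0.5 log2 units that also passed the threshold was found for 2 members, BMF and PMAIP1, against 15.7% of all genes. The 3 Y-320 libraries lay wholly above or wholly below the 3 untreated libraries for 6 members, against 59.2% of all genes. The median log2 fold change was -0.02 over the members and 0.001 over all genes tested.

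**Figure D1:**
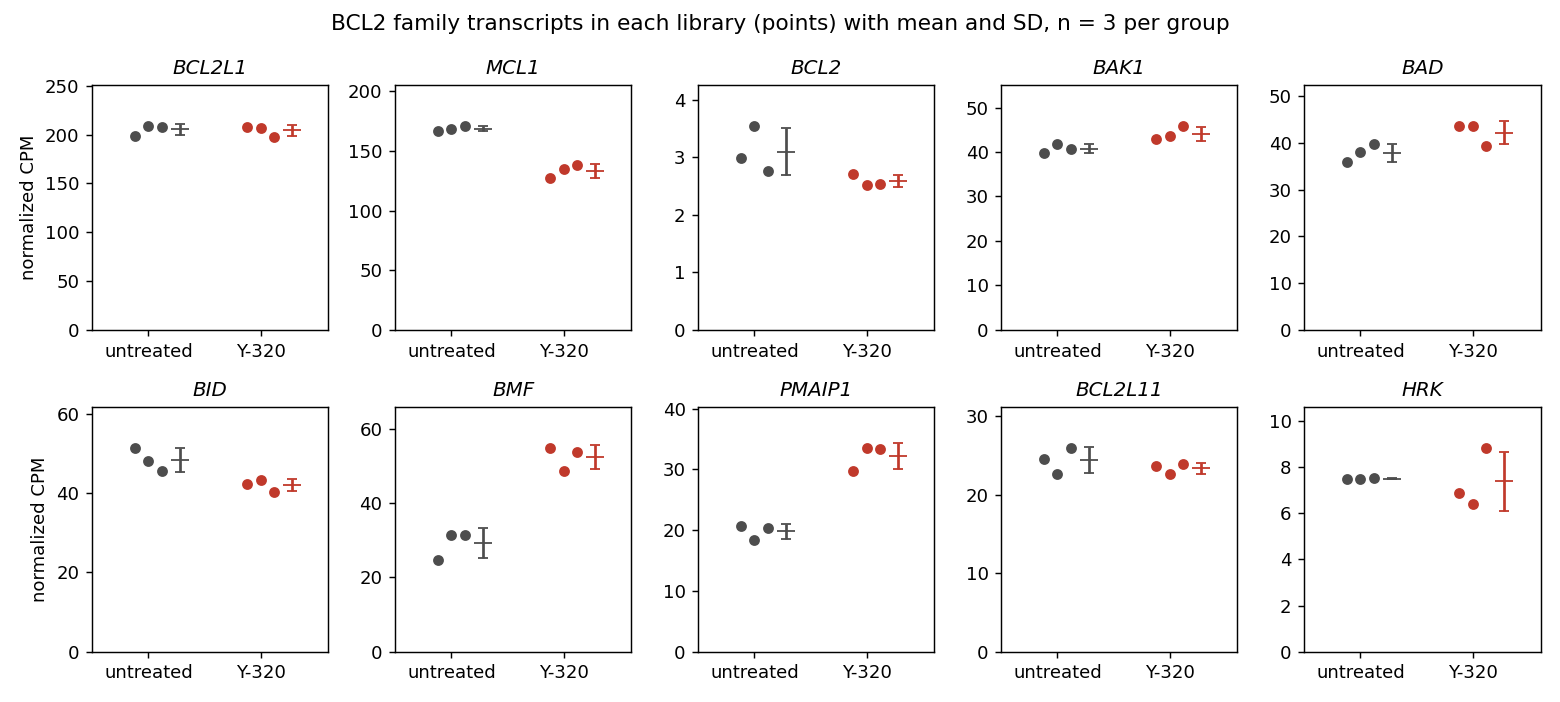
Normalized CPM of each of the 10 members (vertical axes, linear and starting at 0) in the untreated (grey) and Y-320 (red) libraries. Each point is 1 library, and the bar beside the points is the mean with its SD (n = 3). BMF and PMAIP1 lie higher in all 3 Y-320 libraries, MCL1 and BID lie lower, and BCL2L1, BCL2L11, BAD and HRK overlap.

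PMAIP1 encodes NOXA, a BH3-only protein whose preferred partner is MCL1. The gene (ENSG00000141682) lies on chromosome 18 from 59899996 to 59904305 on the plus strand of hg38. Its RefSeq start site stands right after the following 120 bases, shown because PMAIP1 is one of the members that rose most (GRCh38.p14, chr18:59899876-59899995, plus strand). Capitals mark TGACG, a core of the cyclic AMP response element (CRE), which is read on the opposite strand as CGTCA.

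PMAIP1: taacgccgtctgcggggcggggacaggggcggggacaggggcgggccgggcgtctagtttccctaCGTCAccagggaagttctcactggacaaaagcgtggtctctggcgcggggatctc

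PMAIP1 had 20.7, 18.4 and 20.4 CPM in untreated replicates 1, 2 and 3 and 29.8, 33.6 and 33.4 CPM with Y-320. All treated libraries were above all untreated ones, and the gap between the groups was wider than the spread within either. The log2 fold change was 0.70 (standard error 0.064, 95% interval 0.56 to 0.84, edgeR adjusted p = 7.59e-06), higher than 94.5% of the genes tested. No 31-base word of its transcripts occurs in another annotated gene.

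BMF encodes a BH3-only protein known to sit on the cytoskeleton and to be freed when cells detach. The gene (ENSG00000104081) lies on chromosome 15 from 40087890 to 40108892 on the minus strand. The 120 bases before the RefSeq start site that holds a TGACG are shown for the same reason as those of PMAIP1 (chr15:40108880-40108999, minus strand), with that match in capitals.

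BMF: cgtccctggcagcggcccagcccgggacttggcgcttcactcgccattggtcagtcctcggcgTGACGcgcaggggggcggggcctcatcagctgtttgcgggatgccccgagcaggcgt

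BMF had 24.7, 31.5 and 31.5 CPM untreated, and Y-320 libraries had 54.9, 48.7 and 53.6 CPM. Untreated replicate 1 was the lowest library, and the treated libraries all lay above the highest untreated one. The log2 fold change was 0.84 (standard error 0.083, 95% interval 0.66 to 1.03, edgeR adjusted p = 1.26e-05), higher than 96.3% of the genes tested. Of its 31-base words, 7.32% also occur in its antisense gene BMF-AS1, for which no row was found in the gene table.

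The other BH3-only members moved less or did not pass the test. BID, which links death receptors to mitochondria after caspase-8 cuts it, had 51.5, 48.1 and 45.6 CPM untreated and 42.3, 43.3 and 40.4 CPM with Y-320. The groups did not overlap, and BID fell by 0.21 on the log2 scale (standard error 0.049, 95% interval -0.32 to -0.10, edgeR adjusted p = 0.00544). BAD, a BH3-only protein that growth factor signalling holds inactive by phosphorylation, had 35.9, 38.0 and 39.8 CPM untreated and 43.6, 43.7 and 39.4 CPM with Y-320. Y-320 replicate 3 lay below untreated replicate 3, so the groups overlapped. The log2 fold change of BAD was 0.16 (standard error 0.054, 95% interval 0.04 to 0.28, edgeR adjusted p = 0.0306), and it was not past the threshold under DESeq2 (adjusted p = 0.0842) or upper-quartile scaling (adjusted p = 0.0722). It was also lost without untreated replicate 1 (adjusted p = 0.114), untreated replicate 2 (0.0702), Y-320 replicate 1 (0.0935) or Y-320 replicate 2 (0.105). BAD shares 18.5% of its 31-base words with GPR137, which overlaps it on the opposite strand and was itself not past the threshold (log2 fold change 0.11, standard error 0.054, edgeR adjusted p = 0.107).

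BCL2L11 encodes BIM, a BH3-only protein that binds all of the pro-survival proteins named here. It had 24.6, 22.6 and 26.0 CPM untreated and 23.6, 22.6 and 23.9 CPM with Y-320. The groups overlapped, and the log2 fold change was -0.06 (95% interval -0.19 to 0.07, edgeR adjusted p = 0.413). HRK encodes a BH3-only protein best known in neurons, and was the least abundant BH3-only member per length. It had 7.47, 7.48 and 7.52 CPM untreated and 6.87, 6.41 and 8.85 CPM with Y-320. The 3 treated libraries spread around the untreated ones, and the log2 fold change was -0.02 (95% interval -0.29 to 0.25, edgeR adjusted p = 0.892). The bases before the HRK start are shown as those of a BH3-only member whose level did not pass the test but whose window holds both TGACG and TGATGNAA, the element bound by C/EBP and ATF factors (chr12:116881442-116881561, minus strand, matches in capitals).

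HRK: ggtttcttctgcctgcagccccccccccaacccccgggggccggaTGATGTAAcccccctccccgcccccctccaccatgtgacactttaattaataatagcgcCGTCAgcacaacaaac

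Among the pro-survival genes that are members, MCL1 (ENSG00000143384, chromosome 1 from 150560895 to 150579738, minus strand) was the one that passed the test. It had 167, 168 and 171 CPM untreated, and Y-320 libraries had 127, 135 and 138 CPM. All treated libraries lay below all untreated ones. MCL1 fell by 0.34 on the log2 scale (standard error 0.033, 95% interval -0.41 to -0.26, edgeR adjusted p = 1.27e-05), lower than all but 15.5% of the genes tested. BCL2L1, which encodes BCL-xL and, from a shorter splice form, the pro-apoptotic BCL-xS, had 199, 209 and 208 CPM untreated and 208, 207 and 198 CPM with Y-320. The groups overlapped, and the log2 fold change was -0.01 (standard error 0.030, 95% interval -0.07 to 0.06, edgeR adjusted p = 0.87). The sign of so small a value changed under 4 of the alternatives tried, 0.006 with library-size scaling among them. BCL2L1 shares 37.8% of its 31-base words with the antisense gene ABALON, for which no row was found in the gene table. Gene-level counts do not separate the splice forms of BCL2L1 or MCL1.

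BCL2 itself, the founding pro-survival gene (ENSG00000171791, chromosome 18 from 63123346 to 63320128, minus strand), was scarce in these cells. It had 66, 74 and 61 counts untreated and 62, 55 and 56 counts with Y-320, or 2.99, 3.55 and 2.76 against 2.71, 2.52 and 2.53 CPM. All treated libraries lay just below the lowest untreated one, but the test was not passed (log2 fold change -0.26, standard error 0.155, 95% interval -0.61 to 0.09, edgeR adjusted p = 0.193). A fall to 0.657 and a rise to 1.06 times the untreated level both lie within that interval.

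BAK1, an effector that forms pores in the outer membrane, had 39.8, 41.9 and 40.6 CPM untreated and 42.9, 43.6 and 45.9 CPM with Y-320. The groups did not overlap, and the log2 fold change was 0.11 (standard error 0.040, 95% interval 0.02 to 0.20, edgeR adjusted p = 0.0367). BAK1 was not past the threshold under DESeq2 (adjusted p = 0.195) or upper-quartile scaling (adjusted p = 0.103). It was also lost without untreated replicate 1 (adjusted p = 0.117), untreated replicate 3 (0.0932), Y-320 replicate 2 (0.0601) or Y-320 replicate 3 (0.132). The pseudogene BAK1P1, with which it shares 16.8% of its 31-base words, held at most 7.9 counts in any library.

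**Figure D2:**
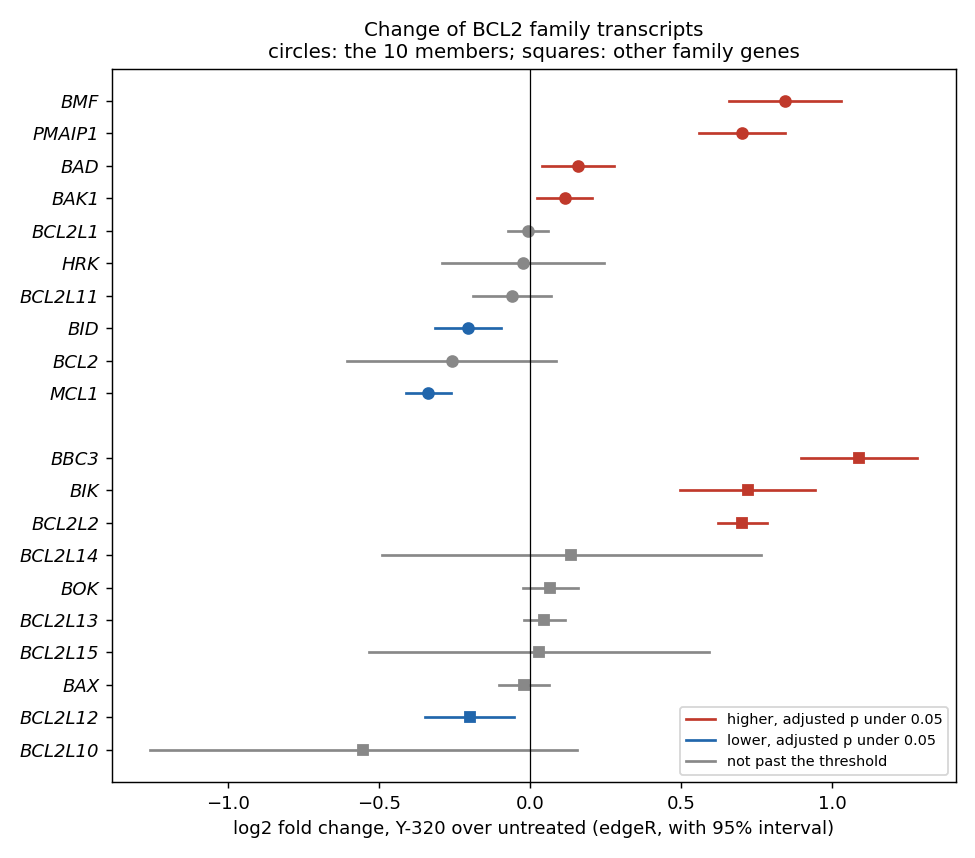
Log2 fold change of Y-320 over untreated (horizontal axis) for the 10 members (circles) and the 10 other family genes tested (squares). Lines are 95% intervals from the edgeR fit, and colour marks genes higher (red), lower (blue) or not past the threshold (grey). BMF, PMAIP1, BBC3, BIK and BCL2L2 stand at 0.70 or more, and MCL1, BID and BCL2L12 are the genes called lower.

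Levels of different genes were compared per kilobase of the reference transcript. BCL2L1 was the most abundant member in both groups, at 79.8 ± 2.12 (SD, n = 3) CPM per kilobase untreated and 79.4 ± 2.13 with Y-320. In untreated cells it was followed by MCL1 (42.7 ± 0.592), BAD (40.8 ± 2.10), BID (22.2 ± 1.34), BAK1 (18.8 ± 0.496), PMAIP1 (10.4 ± 0.676), BMF (6.23 ± 0.841), BCL2L11 (4.78 ± 0.332), HRK (1.29 ± 0.00435) and BCL2 (0.451 ± 0.0587 CPM per kilobase, all SD, n = 3). In that order, neighbours overlapped between libraries for MCL1 and BAD alone. With Y-320, BAD (45.5 ± 2.66) stood above MCL1 (33.8 ± 1.42) without overlap, and BAK1 (20.3 ± 0.706) and BID (19.3 ± 0.671 CPM per kilobase) overlapped with BAK1 first. PMAIP1 rose to 17.0 ± 1.14 and BMF to 11.2 ± 0.689 CPM per kilobase, and both kept their places in the order by this length. With the length of all merged exons in place of the reference transcript, BAK1 stood above BID in both groups, at 18.4 ± 0.486 against 11 ± 0.662 CPM per kilobase untreated and 19.9 ± 0.693 against 9.50 ± 0.330 with Y-320 (SD, n = 3). By that length PMAIP1 moved from below BID (9.07 ± 0.587 untreated) to above it (14.8 ± 0.987 with Y-320), and BMF reached 9.62 ± 0.593 CPM per kilobase, close to BID.

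Summed over the 3 pro-survival members, the level was 120, 124 and 125 CPM per kilobase untreated, and Y-320 libraries had 114, 115 and 112. The sum over the 6 BH3-only members was 84.6, 85.1 and 87.6 CPM per kilobase untreated and 99.6, 101 and 96.2 with Y-320. The first sum was lower and the second higher in every treated library. The first sum leaves out BCL2L2, a pro-survival gene that is no member. Its mean rose from 47.7 CPM untreated to 77.5 CPM with Y-320, over a reference transcript of 3526 bases. The fall of the first sum thus holds for the 3 members only. With BCL2L2 added at its level per kilobase, the untreated and Y-320 sums overlapped. The ratio of the second sum to the first went from 0.698 ± 0.0105 to 0.870 ± 0.0112 (SD, n = 3). This ratio is a description of RNA and was given no test. MCL1 held 34.7 ± 0.468% of the pro-survival sum untreated and 29.8 ± 1.37% with Y-320, while BCL2L1 held 64.9 ± 0.441% and 69.9 ± 1.36%. PMAIP1 held 12.2 ± 0.781% of the BH3-only sum untreated and 17.2 ± 1.32% with Y-320, and BMF 7.26 ± 0.905% and 11.3 ± 0.852%. BID went from 26.0 ± 2.02% to 19.5 ± 0.237%, and BAD, the largest part, held 47.5 ± 1.66% and 46.0 ± 1.68%. For the pair of NOXA and its partner, the ratio of PMAIP1 to MCL1 was 0.259, 0.228 and 0.248 untreated and 0.488, 0.517 and 0.504 with Y-320.

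**Figure D3:**
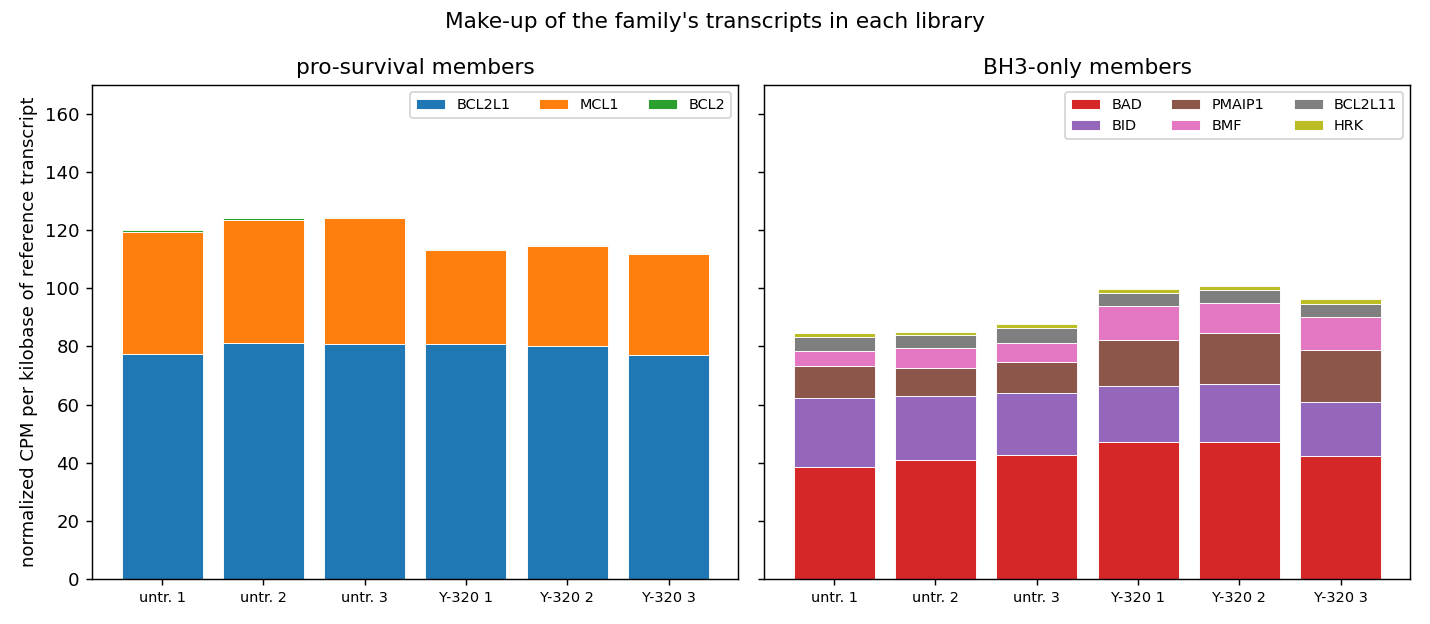
Stacked bars of normalized CPM per kilobase of reference transcript (vertical axis, starting at 0) for the pro-survival members (left) and the BH3-only members (right), 1 bar per library. The pro-survival bars reach 120 to 125 untreated and 112 to 115 with Y-320, the BH3-only bars 84.6 to 87.6 and 96.2 to 101, and BCL2 is too scarce to be seen.

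The other genes of the family numbered 11, of which 10 were tested. With Y-320, 3 of them were higher and 1 was lower, together 4 of 10 against 51.5% of all genes tested, with a median log2 fold change of 0.06. BBC3, which encodes the BH3-only protein PUMA, had 5.84, 6.33 and 7.11 CPM untreated and 13.2, 13.8 and 14.1 CPM with Y-320 (log2 fold change 1.09, standard error 0.086, edgeR adjusted p = 2.56e-06). BIK, a BH3-only protein of the endoplasmic reticulum, had 5.53, 4.70 and 5.07 CPM untreated and 8.05, 8.15 and 9.03 CPM with Y-320 (log2 fold change 0.72, standard error 0.101, edgeR adjusted p = 0.000161). RNA of BBC3 and BIK lay above the untreated range in every treated library, as that of BMF and PMAIP1 did. The same order was found for 4944 of the 16580 genes tested. BID lay below in every treated library, and BAD, BCL2L11 and HRK overlapped.

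BCL2L2, which encodes the pro-survival protein BCL-w, rose as well. It had 50, 46.6 and 46.4 CPM untreated and 77.6, 76.7 and 78.4 CPM with Y-320 (log2 fold change 0.70, standard error 0.036, edgeR adjusted p = 1.13e-07). It shares 15.8% of its 31-base words with the readthrough gene BCL2L2-PABPN1, which was not past the threshold (log2 fold change 0.26, edgeR adjusted p = 0.476). Without untreated replicate 2, where that row held 112 counts against 53.6 and 49.6, it was higher (log2 fold change 0.77 and adjusted p = 0.00353). BCL2L12 was lower (log2 fold change -0.20, standard error 0.065, edgeR adjusted p = 0.026), but not under DESeq2 (adjusted p = 0.0671) or without untreated replicate 1 (0.0561), untreated replicate 2 (0.101) or Y-320 replicate 3 (0.0933). It shares 23.2% of its 31-base words with IRF3, whose own log2 fold change was 0.01 (edgeR adjusted p = 0.909).

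BAX, the other main effector, had 41.3, 41.4 and 42.9 CPM untreated and 40.3, 42.1 and 41.4 CPM with Y-320, which overlapped (log2 fold change -0.02, edgeR adjusted p = 0.666). BOK (0.07), BCL2L13 (0.05), BCL2L14 (0.14), BCL2L15 (0.03) and BCL2L10 (-0.55, standard error 0.317) were also not past the threshold on the log2 scale of the fit. BCL2A1, a pro-survival gene of blood cells, was under the limit of 3 counts in all 6 libraries and was not tested.

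**Figure D4:**
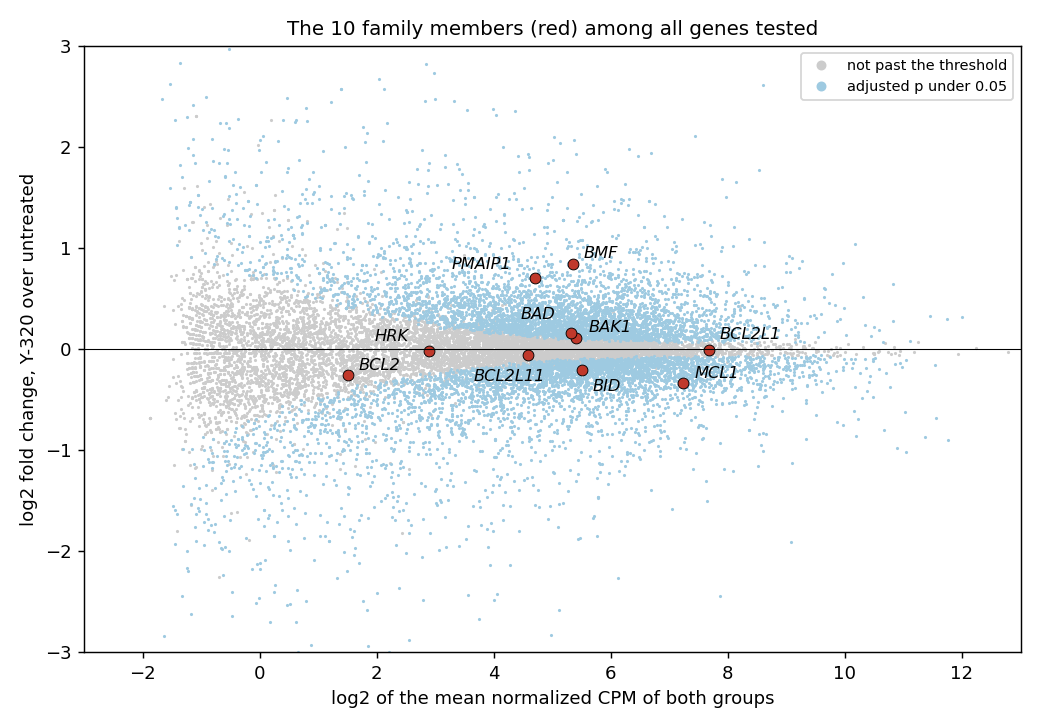
Log2 fold change of Y-320 over untreated (vertical axis, limited to 3 units) against the log2 of the mean normalized CPM (horizontal axis, also limited). The limits of both axes together leave out 29 genes. Each dot is a gene tested, blue where the adjusted p was under 0.05, and the 10 members are the red circles. BMF (0.84) and PMAIP1 (0.70) lie in the upper part of the cloud and the other 8 members between -0.34 and 0.16.

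A list of 22 genes of caspases, their regulators at death receptors, the apoptosome and inhibitor of apoptosis proteins (IAPs) was tested in full. Of these 9 were higher and 7 lower, against 26.2% and 25.4% of all genes tested, with a median log2 fold change of 0.06. BIRC3, which encodes the inhibitor cIAP2, had 13, 14.1 and 12.5 CPM untreated and 45.6, 49.2 and 47.7 CPM with Y-320 (log2 fold change 1.85, standard error 0.053, edgeR adjusted p = 2.40e-09). Of the genes for proteins released from mitochondria during apoptosis, CYCS (cytochrome c), HTRA2 and DIABLO were higher, with log2 fold changes of 0.45 (edgeR adjusted p = 1.54e-05), 0.36 (4.88e-05) and 0.32 (8.93e-05). ENDOG was higher by 0.17 (adjusted p = 0.0381) and AIFM1, which encodes AIF, fell by 0.24 (adjusted p = 0.000325), both named after their values were seen. ENDOG lost the call with no filter, under DESeq2, with upper-quartile scaling and without any 1 library other than untreated replicate 3, with adjusted p of 0.0694 to 0.256. Caspase genes among the largest changes were lower, with log2 fold changes of -0.50 for CASP10 (edgeR adjusted p = 0.000393), an initiator caspase, and -0.41 for CASP6 (0.000635), an executioner.

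A list of 10 genes for outer membrane channels and for enzymes that add or remove ubiquitin on MCL1 had 1 gene higher and 4 lower, a share close to the 51.5% called among all genes tested, with a median log2 fold change of -0.03. The lower ones numbered 2 without untreated replicate 2 or Y-320 replicate 3, and 2 genes were higher without Y-320 replicate 1. USP9X, a deubiquitinase known to stabilise the MCL1 protein, had 109, 105 and 111 CPM untreated and 84.9, 89.5 and 87.2 CPM with Y-320 (log2 fold change -0.32, standard error 0.034, edgeR adjusted p = 2.34e-05). USP13, another deubiquitinase of MCL1, fell by 0.22 on the log2 scale (edgeR adjusted p = 0.00233). VDAC2, a channel that binds BAK1 in the outer membrane, was higher by 0.25 (edgeR adjusted p = 1.98e-05). MARCHF5, a mitochondrial ubiquitin ligase, and VDAC1 fell by 0.18 (adjusted p = 0.0237) and by 0.07 (adjusted p = 0.0365) and lost the call under some alternatives. For MARCHF5 these were the removal of untreated replicate 2 (adjusted p = 0.0819), Y-320 replicate 1 (0.0698) or Y-320 replicate 3 (0.0545). VDAC1 lost it with no filter, under DESeq2, with library-size scaling and without 4 of the 6 libraries, with adjusted p of 0.0522 to 0.142.

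Of 12 transcription factors known to act on BH3-only genes, 8 were higher and 1 was lower, against 26.2% and 25.4% of all genes tested, with a median log2 fold change of 0.31. ATF3, a stress-induced factor, had 6.43, 7.24 and 6.39 CPM untreated and 31.3, 36.0 and 35.4 CPM with Y-320 (log2 fold change 2.36, standard error 0.078, edgeR adjusted p = 5.14e-09). DDIT3, which encodes CHOP, had 11.3, 11.2 and 10.5 CPM untreated and 35.5, 36.9 and 40.6 CPM with Y-320 (log2 fold change 1.78, standard error 0.065, edgeR adjusted p = 1.01e-08). It shares 21.5% of its 31-base words with MARS1, which overlaps it on the opposite strand and was also higher (log2 fold change 0.75, edgeR adjusted p = 1.31e-08). ATF4, the central factor of the integrated stress response, went from 211 ± 2.84 to 449 ± 8.65 CPM (SD, n = 3), with at most 3.55 counts for its pseudogene ATF4P3 in any library. JUN, an AP-1 subunit, went from 36.8 ± 0.901 to 114 ± 7 CPM. CEBPB, a C/EBP factor, rose by 0.75 on the log2 scale (edgeR adjusted p = 7.14e-08). The factor that was lower, named after its value was seen, was HIF1A, an oxygen-regulated factor, which fell by 0.34 on the log2 scale (edgeR adjusted p = 3.09e-05).

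RefSeq promoter windows, 250 bases before to 50 after each start site (GRCh38.p14), were found for 9 of the 10 members, MCL1 being the one without, and gave 16 windows. They were searched on both strands. TGATGNAA was found in the HRK window alone, 75 bases before the start, and is held by 3.62% of the 35116 windows of all genes. CACGTG, the E-box, was found for BID alone, against 7.26% of all windows. TTGTTTAC (forkhead, 0.954% of all windows), TGANTCA (AP-1, 7.71%) and TGACGTCA (CRE, 1.85%) were found in 0 of the 16.

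TGACG, which lies within TGACGTCA and was added after the PMAIP1 sequence was seen, was found in 7 of the 16 member windows and in 24.6% of all windows. It stood 55 bases before the start of PMAIP1, 57 before that of BMF and 16 before that of HRK. BAD, BCL2 and BCL2L1 held it too, at 54 and 93 (the same match in overlapping windows), 225 and 201 bases before the start. The members holding it thus included genes that rose and genes that did not pass the test.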

How the data were processed

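RNA from 3 untreated and 3 Y-320-treated HDQ-P1 samples was sequenced on an Illumina instrument. The authors deposited unnormalized estimated counts per Ensembl gene (40.1% not whole, tolerance 0.001), which the submitters' processing notes credit to kallisto 0.46.1 and GRCh38 (hg38). The paper describes several combined pipelines, which were not repeated here. Counts were rounded, filtered (filterByExpr, minimum 10 and total 15), scaled by TMM and fitted by edgeR 4.0.16 in R 4.3.3. The fit was tested on simulated data. DESeq2 1.42.0, limma 3.58.1 (voom), other filters and scalings, a replicate block, unrounded counts and removal of each library were alternatives. Names and lengths came from GENCODE 44, and sequences from RefSeq. Plots used matplotlib 3.10.9.

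The members, gene lists and motifs were chosen with earlier results of these data known. Named genes were every member and other family gene, and in other lists at most 6 with the largest change past the threshold and a mean of at least 1 CPM, plus genes sharing sequence with them. Certain genes and 1 list are not reported here, but still count in the list totals. Libraries differed from replicates by 2.00 to 2.87 times the sampling noise and between groups by 37.1 to 39.0 times. A planned search for the BH3 motif in proteins was not run here.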

Additional observations from a re-analysis of the deposited data

How the results depend on the processing

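BMF (0.73 to 0.90), PMAIP1 (0.65 to 0.76), MCL1 (-0.37 to -0.30) and BID (-0.25 to -0.16) kept their direction and call in all 14 alternatives on the log2 scale. Of 140 member values under alternatives, 122 kept direction and call, 12 lost the call and 6 turned direction. The 12 were of BAD (0.157 under DESeq2, 0.129 with upper-quartile scaling, 0.118 to 0.159 with 1 library left out) and BAK1 (0.113, 0.085 and 0.087 to 0.124). With each library left out in turn, BAD ranged from 0.118 to 0.207 and BAK1 from 0.087 to 0.134, calls kept included. The 6 were of BCL2L1 (0.006 with library-size scaling, 0.002 to 0.017 with 1 library left out) and HRK (0.027 and 0.069 with 1 left out), which were not called. Over all such removals BCL2L1 ranged from -0.030 to 0.017 and HRK from -0.172 to 0.069. Members called higher numbered 2 under DESeq2, upper-quartile scaling, an adjusted p under 0.01 or a change of at least 0.5 log2 units, and 2 to 3 with 1 library left out. Members called lower numbered 0 at 0.5 log2 units, where 1400 genes were higher and 1207 lower. Other family genes called lower numbered 0 under DESeq2 and 0 to 1 with 1 library left out. Among the channel and MCL1 turnover genes 1 to 2 were higher and 2 to 4 lower with 1 left out. Of genes that are no member, IRF3 turned to -0.022 with upper-quartile scaling (-0.017 to 0.046 with 1 library left out), and BCL2L15 ranged from -0.159 to 0.187. With merged exon lengths the BH3-only to pro-survival ratio was 0.685 untreated and 0.898 with Y-320. By the reference transcripts with BCL2L2, BCL2A1, BIK and BBC3 added, it was 0.693 untreated and 0.848 with Y-320. The pro-survival sums of untreated and Y-320 libraries overlapped once BCL2L2 was added, so their fall holds for the members only. Where a call was lost, the cause was not tested, apart from the stricter thresholds, which lower counts by construction.

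Same-numbered libraries did not deviate together (correlations of -0.03, 0.02 and -0.00 over 15072 genes), so the numbers were not taken as pairs. With the replicate block, 4 members were higher and 2 lower, and 4285 genes were higher and 4159 lower. Depth limits BCL2 most among the members, at 55 to 74 counts per library.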
